A study of Homo sapiens with 6 samples.

Results

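MDA-MB-231 cells that had received a low dose of CXCL12 and IGF1 were compared with cells that had received neither factor. The comparison rests on 4 of the 6 libraries of the series, chosen by their treatment labels: 2 untreated libraries (0 ng/mL of each factor) and 2 libraries from cells given 30 ng/mL CXCL12 with 10 ng/mL IGF1, here called the lower dose. The other 2 libraries, from cells given 300 ng/mL CXCL12 with 100 ng/mL IGF1 (the higher dose), entered the same model and are used where the lower dose is set against them. MDA-MB-231 is a mesenchymal, triple-negative human breast cancer line. In all 3 groups the cells carried an EGFP-tagged ribosomal protein L10a, spent 24 h in 0.2% serum and were collected 6 h after the factors were added. The sources used here do not give the promoter of the tagged protein or whether the cells were 1 clone. Replicates, lettered a and b, are described as biological, but the labels do not say whether they came from separate cultures, so p-values measure the spread between these libraries.

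CXCL12 is a chemokine that acts through the receptor CXCR4, a G protein-coupled receptor. IGF1 acts through the receptor tyrosine kinase IGF1R, which signals to the phosphoinositide 3-kinase, AKT and mTOR route and so to growth and protein synthesis. In translating ribosome affinity purification, tagged ribosomes are captured with an antibody against GFP, and the mRNA they carry is sequenced. A changed level is a changed share of the captured mRNA: total RNA of the same cells was not analysed here, so the amount of an mRNA and its hold on ribosomes cannot be told apart. The factors were given together, and neither dose separates them.

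Reads on genes came to between 26255079 and 30280322 per library. At this depth 3 reads, the limit that a count of 0 allows, correspond to 0.0991 to 0.114 CPM (the reads of a gene scaled to a common library total). Of the markers of the line, VIM, CD44, CAV1, PLAUR, MSN and TGFBI were present at 69.7 CPM or more in each of the 4 libraries. The estrogen and progesterone receptor genes ESR1 and PGR had 0 to 2 reads, and ERBB2 had 66.1 to 77.2 CPM. Of the epithelial markers, CDH1 had 0.138 to 0.45 CPM and ESRP1 0.114 to 0.311 CPM, while EPCAM was present at 12.4 to 13.6 CPM. The 10 markers of blood, endothelial, fibroblast, liver and glial cells summed to 25.9 and 27.8 CPM in the untreated libraries and 26.1 and 26.4 CPM at the lower dose. GFAP accounted for most of that sum, and CD3E and CDH5 were at 0.

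At the lower dose 4418 of 13548 genes tested differed from untreated cells, or 32.6%. Of these, 2262 rose (16.7% of the genes tested) and 2156 fell (15.9%). The test was edgeR's quasi-likelihood F test over all 6 libraries, with Benjamini-Hochberg adjusted p under 0.05 called a pass. The changes were small: the median absolute log2 fold change of the genes that passed was 0.20, and 103 genes (0.76%) both passed and changed at least 1.5-fold, 54 up and 49 down; DESeq2 called 19 genes of that size. The libraries of the groups did not overlap for 64.4% of the genes tested. DESeq2 called 2562 genes in the same libraries, and 2285 of edgeR's 4418 genes passed again in each of the 4 fits that left out 1 of the libraries compared.

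**Figure D1:**
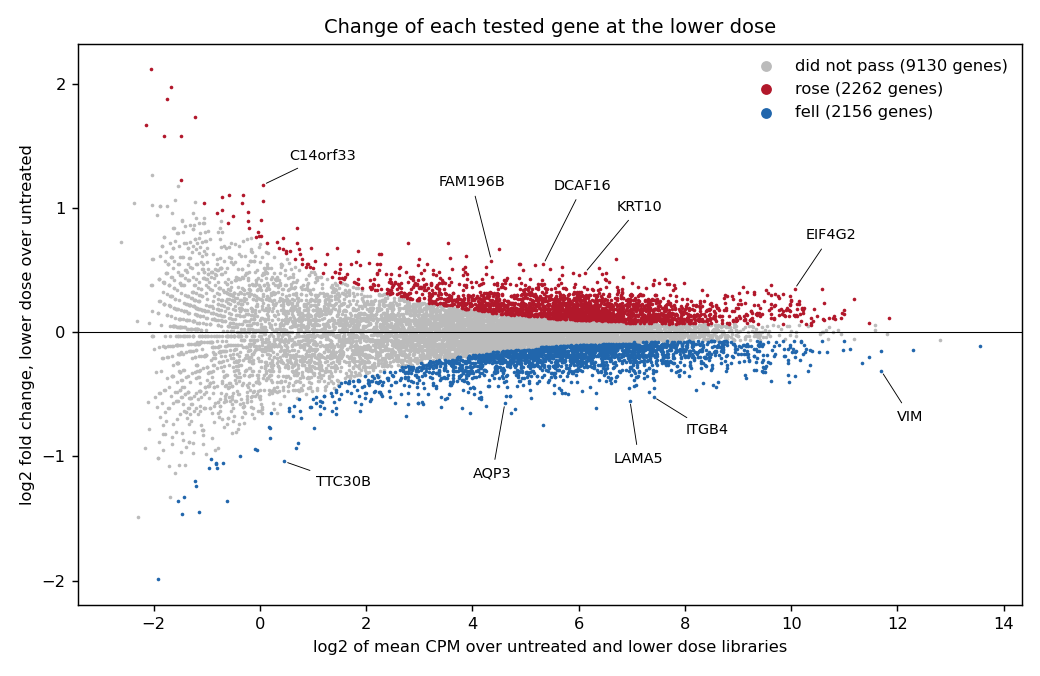
Log2 fold change of the lower dose over untreated (vertical axis) against log2 of the mean CPM over the 4 libraries compared (horizontal axis), 1 point for each of 13548 genes. Red points rose (2262), blue points fell (2156) and grey points did not pass (9130); folds past 1.5 at 10 CPM or more are few.

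Large responses among well-measured genes included little-studied ones. Genes that passed, had a mean of at least 10 CPM over the 4 libraries and had groups without overlap were ranked by fold change. Left aside were 72 genes such as SNHG3 and PBXIP1 that earlier results of these data had brought forward (7 of them rose and 9 fell by at least as much as the last gene ranked). The ranking gave 32 genes, 16 in each direction. Their lack of overlap between the groups was a condition of the choice and adds no support. All 32 also passed with DESeq2 and in each of the 4 fits that left out a library.

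FAM196B (INSYN2B), a little-studied gene named as a member of an inhibitory synaptic factor family, had 15.4 and 17.4 CPM in untreated libraries a and b and 24.9 and 24.3 CPM in lower dose libraries a and b. Its log2 fold change was 0.58 ± 0.07 (SE; edgeR adjusted p = 5.5e-10). At the higher dose it had 20.6 and 21.9 CPM, below both lower dose libraries. MAP3K13, a kinase upstream of the JNK pathway, rose from 22.5 and 25.4 to 36.4 and 34.1 CPM (0.55 ± 0.06, adjusted p = 3.82e-11). DCAF16, a substrate receptor of CUL4-type ubiquitin ligases, rose from 32.4 and 33.3 to 48.9 and 47.1 CPM (0.55 ± 0.05, adjusted p = 4.7e-13). In both, the lowest treated library stood well above the highest untreated one.

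Mitochondrial assembly genes were among the risers. TIMM9, which escorts membrane proteins across the space between the mitochondrial membranes, had 33.5 and 39 CPM untreated and 53.5 and 49.9 CPM with the lower dose (0.51 ± 0.05). FAM36A (COX20), an assembly factor of cytochrome c oxidase, had 11.5 and 12.1 CPM against 17.8 and 16.4 CPM (0.53 ± 0.08). The transcript of TIMM9 is short, and its log2 fold change was 0.28 after a correction for transcript length and GC content. COX20 and TIMM9 rose further at the higher dose, to log2 fold changes over untreated of 0.93 and 0.94.

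KRT10, a keratin of the suprabasal epidermis, had 55.8 and 60.1 CPM untreated and 84.5 and 77.3 CPM with the lower dose (0.48 ± 0.04, adjusted p = 2.53e-13). CDK8, the kinase of the Mediator complex, had 8.71 and 8.54 CPM against 12.1 CPM in both treated libraries (0.49 ± 0.09, adjusted p = 1.59e-05). B3GNT5, which starts the lacto-series of glycolipids, had 11.4 and 11.9 CPM against 16.6 CPM in both treated libraries (0.51 ± 0.08). The remaining coding genes of this set were C11orf82 (DDIAS), a suppressor of apoptosis after DNA damage, at 0.50, GPBP1 at 0.48, and FAM72D at 0.51. FAM72D has near-identical copies, among which reads cannot be assigned with certainty.

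Of the 16 risers, 5 were noncoding RNAs, host genes or loci with an LOC symbol. This count was not set beside the share of such genes among all genes tested. SNHG13 (DANCR), a long noncoding RNA, had 40 and 43.8 CPM untreated and 60.1 and 61.3 CPM with the lower dose (0.53 ± 0.05). LOC541471 (MIR4435-2HG) had 48 and 51.3 CPM against 71.5 and 67.1 CPM (0.48 ± 0.04). DLEU1 (0.53), the snoRNA host LOC388796 (SNHG17, 0.49, or 0.32 after the correction for length and GC content) and LOC100294145 (0.55) rose as well. For these 5, as for the other risers, groups without overlap were a condition of the choice.

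Genes of the epithelial surface and the basement membrane were among the falls. AQP3, a channel for water and glycerol, had 29.4 and 29 CPM untreated and 20.3 and 19.1 CPM with the lower dose (−0.57 ± 0.06, adjusted p = 6.26e-11). LAMA5, a laminin chain of basement membranes, fell from 149.6 and 147.8 to 100.5 and 102.1 CPM (−0.55 ± 0.03, adjusted p = 2.22e-18). ITGB4, the integrin subunit that holds hemidesmosomes to laminin, fell from 207.1 and 194.1 to 139.1 and 140.0 CPM (−0.52 ± 0.03, adjusted p = 2.22e-18). The treated libraries of all 3 genes agreed closely and lay far under the untreated ones. After the correction for length and GC content LAMA5 and ITGB4, both long and GC-rich, each had −0.41.

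Other matrix genes fell beside them. COL6A1 had 64 and 66.2 CPM untreated and 45.6 and 46.4 CPM treated (−0.50 ± 0.04), and COL4A1 had 28.9 and 29.7 CPM against 20 and 21.2 CPM (−0.51 ± 0.06). LOXL4, a lysyl oxidase of the family that cross-links collagen, had 96.6 and 91.9 CPM against 65.9 and 68.2 CPM (−0.49 ± 0.04, adjusted p = 2.84e-15). LTBP1, which stores latent TGF-beta in the matrix, fell by 0.53 on the log2 scale. The protocadherins PCDH1 (−0.50) and PCDHGB2 (−0.54) fell too; PCDHGB2 shares its constant exons with neighbouring genes of its cluster and is uncertain. COL6A1 differed little between the doses: the difference was −0.06, with a 95% interval (1.96 SE) of −0.15 to 0.03. This interval does not show that the doses acted alike.

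Other falls had roles in growth restraint, ubiquitin and damage handling. CDKN1C, the cyclin-dependent kinase inhibitor p57, had 13.8 and 11.3 CPM untreated and 8.52 and 8.82 CPM with the lower dose (−0.52 ± 0.10, adjusted p = 1.4e-05). TP53BP1, a mediator of DNA break repair, had 14.9 and 12.3 CPM against 8.93 and 9.82 CPM (−0.53 ± 0.09). TRIM21, an intracellular antibody receptor and ubiquitin ligase, had 22.7 and 19.4 CPM against 15.3 and 14 CPM (−0.52 ± 0.07). The untreated libraries of these 3 genes lay further apart than those of the matrix genes, with untreated a the higher in each. KLHL24 (−0.54), CALCOCO1 (−0.51), RCSD1 (−0.50) and CST1, a secreted inhibitor of cysteine proteases (−0.53), completed the 16 falls.

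**Figure D2:**
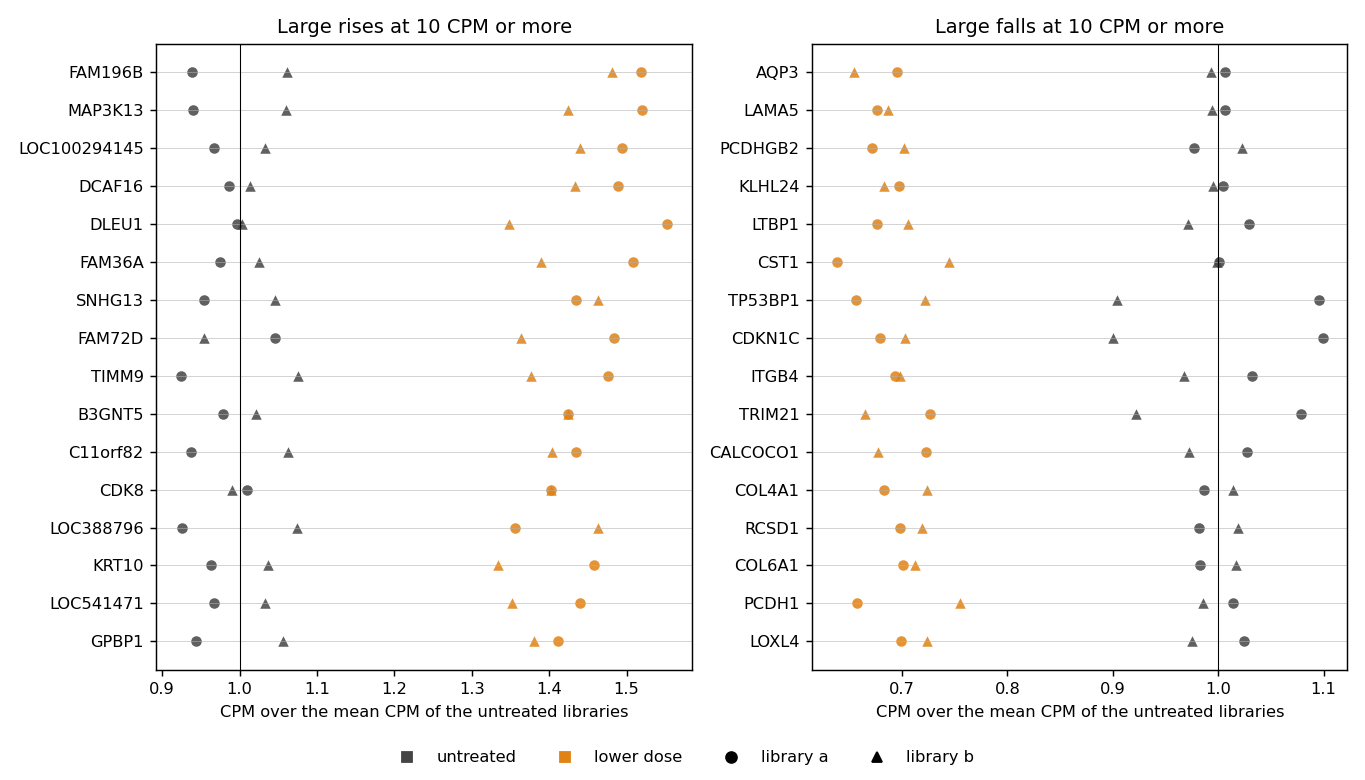
CPM of each library divided by the mean of the untreated libraries (horizontal axis), for 16 rises (left) and 16 falls (right) among genes of at least 10 CPM; grey is untreated, orange is the lower dose, circles are library a and triangles library b. Treated and untreated points are separate for each gene, which the choice of genes required. Examples are 24.9 and 24.3 against 15.4 and 17.4 CPM for FAM196B and 100.5 and 102.1 against 149.6 and 147.8 CPM for LAMA5.

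Folds were larger among scarce mRNAs and rested on few reads. With a minimum of 1 CPM, the 15 largest rises outside the genes set aside had means of 1.01 to 2.73 CPM, and the 15 largest falls 1.13 to 3.72 CPM. C14orf33 (KTN1-AS1) had 0.647 and 0.626 CPM untreated and 1.45 CPM in both treated libraries (1.19 ± 0.28, adjusted p = 0.000752). TTC30B, a protein of intraflagellar transport, had 1.83 and 1.88 CPM against 1.04 and 0.761 CPM (−1.04 ± 0.24, adjusted p = 0.000579). KTN1-AS1 lies antisense to KTN1, and the sources used here do not say whether strand was used in counting, so reads of the partner gene cannot be told apart.

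Most calls of this scarce set were lost when a library was left out. Of the 15 rises, 1 (KTN1-AS1) passed in each of the 4 fits, and of the 15 falls 5 did: TTC30B, the zinc finger gene ZNF467 (−0.93), the desmosome-linked plakin PPL (−0.89), the synaptotagmin SYT11 (−0.66) and the proprotein convertase PCSK6 (−0.63). DESeq2 gave no adjusted p for any of the 30. FTX, a noncoding gene next to XIST, had 0.761 and 0.593 CPM against 1.39 and 1.42 CPM (1.06 ± 0.28), and its call was lost without untreated b. CXCL16, a chemokine, had 0.685 and 0.725 CPM against 1.49 and 1.18 CPM (0.91 ± 0.28) and lost its call without untreated a or lower dose a. PDK4, which restrains pyruvate dehydrogenase, fell by 0.63 on the log2 scale and lost its call without any 1 of the 4 libraries.

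Counted in CPM, genes that rose gained 36015 CPM in sum and genes that fell lost 35139 CPM; the scaling holds the library total fixed, so these sums must nearly balance. Large gains were those of TMSB10, RPL41, HMGA1, RPS18, EIF4G2, ACTG1 and TMSB4X. EIF4G2, a relative of the scaffold eIF4G that supports cap-independent initiation, had 939.5 and 945.5 CPM untreated and 1201 and 1200 CPM with the lower dose (0.35 ± 0.03, adjusted p = 3.83e-16). Its libraries differed little within a group, and its log2 fold change was 0.35 after the correction for length and GC content as well. TMSB10, an actin-binding thymosin, had 2044 and 2159 CPM against 2594 and 2459 CPM (0.27 ± 0.03), or 0.10 after the correction. TMSB4X, its relative, passed at 0.15 and stood at −0.04 after the correction (adjusted p = 0.168), so its direction depends on that choice. RPS18, a protein of the small ribosomal subunit, had 0.18 and lost its call after the correction (0.02, adjusted p = 0.613), and RPL41, of the large subunit, went from 0.35 to 0.17.

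The largest losses fell on abundant housekeeping and cytoskeletal mRNAs. EEF1A1, the elongation factor that brings aminoacyl-tRNA to the ribosome, was the most abundant mRNA of the 16, at 12520 and 12314 CPM untreated and 11678 and 11313 CPM with the lower dose (−0.11 ± 0.03, adjusted p = 0.000494). HSP90B1, a chaperone of the endoplasmic reticulum, had 1153 and 1110 CPM against 867.6 and 843.3 CPM (−0.40 ± 0.03). The intermediate filament gene VIM had 3748 and 3588 CPM against 2952 and 2983 CPM (−0.31 ± 0.03). GAPDH (−0.14), PKM2 (PKM, −0.25), ENO1 (−0.20), IGFBP4 (−0.15) and CTSD (−0.31) were the others, and all 8 still fell after the correction. With library sizes alone in place of TMM factors, 15 of the 16 genes with the largest gains and losses were the same.

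Many mRNAs under mTOR control begin with a C followed by a run of pyrimidines, the terminal oligopyrimidine tract. The first bases of 6 mRNAs that read as such a tract and 3 that do not are shown, since they include the largest gains and losses of the pool; they are the first 25 bases after the transcription start in RefSeq (GRCh38.p14), matched by gene symbol, 5′ to 3′ on the strand of the gene, with capitals for the C and the pyrimidines that follow it without a break.
RPL41, chr12:56116633-56116657, + strand: CTCTCggccttagcgccattttttt
RPS21, chr20:62387103-62387127, + strand: CCTTTCTCTCTCgcgcgcggtgtgg
RPS18, chr6:33272075-33272099, + strand: CTCTCTTCCacaggaggcctacacg
HMGA1, chr6:34236873-34236897, + strand: CTTTTTaagctcccctgagccggtg
RPLP1, chr15:69452818-69452842, + strand: CCCCTTTCCTCagctgccgccaagg
EEF1A1, chr6:73521008-73521032, − strand: CTTTTTCgcaacgggtttgccgcca
TMSB10, chr2:84905656-84905680, + strand: gtttcttgctgcagcaacgcgagtg
EIF4G2, chr11:10807972-10807996, − strand: acttccctaacttgcgcctgggtgg
VIM, chr10:17228241-17228265, + strand: gggaggcccacgtatggcgcctctc

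A start was called a tract where base 1 is C and at least 4 C or T follow, on the strand of the gene alone. Of 10725 tested genes matched to a RefSeq start, 580 (5.41%) had one. The share was 7.38% among genes that rose and 4.69% among genes that fell. With at least 6 pyrimidines in place of 4 the shares were 4.4% and 2.04%, against 2.94% of all matched genes. The tract and the direction of change did not go together in each case: RPS21 had 661.9 and 713.6 CPM untreated and 927.0 and 861.3 CPM with the lower dose (0.38 ± 0.03, or 0.22 after the correction), while RPLP1 had 610.6 and 613.6 CPM against 655.1 and 607.6 CPM (0.04 ± 0.03, adjusted p = 0.235) and EEF1A1 fell. EIF4G2 and TMSB10 rose without one.

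A split made after these values were seen separated ribosomal proteins and translation factors from other genes. In the translation group 58 of 135 matched genes had a tract, of which 40 (69%) rose and 5 fell, but 46.8% of the genes of this group without a tract rose as well. Outside it 522 genes had a tract, and 96 of them (18.4%) rose, against 16.6% of the genes without a tract. The median log2 fold change of genes with a tract was 0.18 in the translation group, against 0.07 without one, and −0.01 outside it. The shares and medians given for tracts, here and above, are those before the correction for length and GC content. The part of transcript length in them was not tested. A RefSeq start is 1 annotated position and need not be the start used in these cells.

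Transcript length moved with the change. Across 13327 genes with a GENCODE transcript, which are not independent replicates, length and the log2 fold change of the lower dose had a Spearman correlation of −0.26, and GC content had −0.09. With genes in 10 bins by length, the bin of the shortest transcripts, up to 1190 nt, had a median log2 fold change of 0.13, and that of the longest had −0.07. The part of length in the families described next was not tested beyond the correction. Counts after the correction are given for some families, and families without them were not all unchanged by it.

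**Figure D3:**
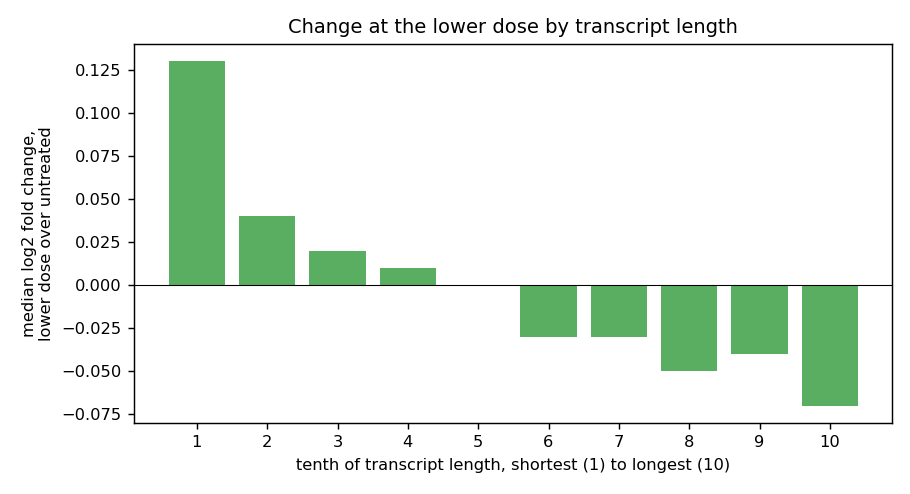
Median log2 fold change of the lower dose over untreated (vertical axis) in 10 bins of transcript length from shortest to longest (horizontal axis), 1332 or 1333 genes a bin. The medians go from 0.13 in the shortest bin to −0.07 in the longest.

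Outside the best-known pathways, members of gene families, and genes with placeholder symbols, were counted by symbol, beside 16.7% of all genes tested that rose and 15.9% that fell. After the correction for length and GC content 2092 of 13327 genes rose and 2013 fell, the background for the corrected counts below. Families were chosen with earlier results of these data known, and a share near that of all genes says nothing about a family.

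Among families of RNA and transcription, 21 of 70 tRNA modification enzymes rose (30%) and 4 fell, and after the length and GC correction 20 rose and 4 fell. DESeq2 called 10 of the 70, up and down together, and 2562 of all 13548 genes tested. METTL1, which methylates guanosine in tRNA, had 16 and 16.1 CPM untreated and 19.8 and 19.7 CPM with the lower dose (0.30 ± 0.07, adjusted p = 0.000631). The largest rise, DUS4L, a dihydrouridine synthase (0.38 ± 0.12), lost its call with DESeq2 (adjusted p = 0.126) and without untreated a or lower dose a. Falls in the family were THUMPD1 (−0.20) and ELP3, the catalytic subunit of Elongator (−0.19), as its largest; the calls of both were lost with DESeq2 (adjusted p = 0.0778 and 0.0856) and without untreated b, that of THUMPD1 also without lower dose a and that of ELP3 also without lower dose b. At the higher dose 41 of the 70 passed upward and 5 downward, where 28.1% and 28.2% of all genes tested did.

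Factors of mRNA decay had 21 rises and 12 falls among 78. The paralogs PNRC2 and PNRC1 moved apart. PNRC2, which links the decapping enzyme to nonsense-mediated decay, had 66.6 and 69.8 CPM untreated and 86.1 and 86.2 CPM with the lower dose (0.34 ± 0.04, adjusted p = 3.25e-10). PNRC1 had 33.8 and 31.5 CPM against 25.5 and 25.8 CPM (−0.34 ± 0.06, adjusted p = 2.53e-06). PNRC2 and PNRC1 were named as the largest rise and the largest fall of the family that passed, so their opposite directions followed from the choice. LSM1, of the ring that promotes decapping, rose by 0.33.

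Nuclear pore proteins and transport receptors split, with 11 rises and 14 falls of 61. The exportin XPO6, which returns actin from the nucleus, had 97.5 and 101.3 CPM untreated and 125.8 and 128.4 CPM treated (0.35 ± 0.03). RANBP2, the large filament protein on the cytoplasmic face of the pore, had 35.1 and 36.6 CPM against 28.5 CPM in both treated libraries (−0.33 ± 0.05).

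Chromatin remodellers and bromodomain proteins had 21 falls and 2 rises among 54 (38.9% fell), with a median log2 fold change of −0.07. After the correction 16 fell and 5 rose, and DESeq2 called 17 of the 54, up and down together. The median transcript of the family was 5916 nt, against 2903 nt over all genes tested. BRD8, a bromodomain subunit of the TIP60 acetyltransferase complex, had 54.5 and 52 CPM untreated and 39.8 and 39.9 CPM with the lower dose (−0.42 ± 0.05, adjusted p = 2.27e-10). BRWD3 had 28.9 and 26.9 CPM against 22.3 and 21.4 CPM (−0.35 ± 0.06). The 2 rises were BRD2 (0.10 ± 0.03, or 0.17 after the correction) and ARID3B (0.32 ± 0.12), the latter lost with DESeq2 (adjusted p = 0.222) and without untreated a, lower dose a or lower dose b. Histone lysine methylation enzymes had 14 falls and 6 rises among 69, but 7 fell and 9 rose after the correction.

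Zinc finger factors, the largest family of transcription factors, had 39 rises and 39 falls among 529 (7.37% each). ZNF146, a protein made almost only of zinc fingers, had 93.3 and 101.1 CPM untreated and 133.0 and 132.2 CPM treated (0.45 ± 0.03, adjusted p = 4.95e-15). Of 33 Mediator genes 9 rose and 6 fell, or 6 and 6 after the correction; beside CDK8, above, MED23 fell (−0.38 ± 0.09). Homeobox factors had 3 rises and 5 falls among 64, with a median of 0.05, and 4 and 3 after the correction. HOXB9, a factor of the HOX clusters, rose from 26.1 and 25.2 to 31.5 and 31.7 CPM (0.30 ± 0.06). Of 31 nuclear receptors 7 rose and 3 fell, although the median of the 31 was −0.06. The orphan receptor NR2F2 (COUP-TFII) had 171.3 and 186.4 CPM against 236.7 and 232.6 CPM (0.39 ± 0.03), and PPARA, a regulator of fatty acid oxidation, had 38.2 and 35.4 CPM against 29.2 and 28.8 CPM (−0.34 ± 0.05).

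Vesicle traffic genes were counted as switches and as coats. Rab GTPases had 12 rises and 3 falls among 58, or 9 and 2 after the correction, with RAB23 at 0.35 ± 0.05 and RAB37 at −0.41 ± 0.09. Coats, tethers and sorting nexins had 48 falls and 20 rises among 147 (32.7% fell), or 44 and 19 after the correction. GOLGA4, a golgin of the trans-Golgi, had 51 and 48.9 CPM untreated and 37.7 and 39.9 CPM with the lower dose (−0.36 ± 0.05, adjusted p = 1.71e-08). The largest rise of this family was AP1M2, the epithelial form of the clathrin adaptor AP-1's medium subunit, from 69 and 76.2 to 104.2 and 97.7 CPM (0.47 ± 0.04, adjusted p = 7.75e-14). It moved against most of the members that passed, and its log2 fold change after the correction was 0.46.

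Among genes of the cytoskeleton, kinesins, dyneins and dynactin had 16 falls and 7 rises among 58. KIF13B had 29.4 and 27.2 CPM untreated and 23.2 and 21.4 CPM treated (−0.34 ± 0.06), while the dynein light chain DYNLL1 rose from 383.3 and 406.1 to 470.8 and 462.2 CPM (0.24 ± 0.03, or 0.10 after the correction). Centrosome and cilium genes had 20 falls and 7 rises among 89, or 16 and 4 after the correction. The falls included PCNT, pericentrin, at 41.7 CPM in both untreated libraries and 33.5 and 32.1 CPM treated (−0.35 ± 0.05, or −0.23 after the correction).

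At the cell surface, cadherins and protocadherins had 11 falls and 2 rises among 43, and the median of the 43 was −0.16, or −0.04 after the correction. G protein-coupled receptors had 17 falls and 10 rises among 105, with a median of 0.01, or 14 falls and 11 rises after the correction. The adenosine receptor ADORA2B had 147.3 and 146.7 CPM untreated and 190.6 and 193.3 CPM with the lower dose (0.39 ± 0.03, adjusted p = 7.88e-15). CXCR4 itself had 45.3 and 49.3 CPM against 43.6 and 45.9 CPM, its groups overlapped and it did not pass (−0.08 ± 0.05, adjusted p = 0.197; −0.13 and 0.0224 after the correction). IGF1R had 33.2 and 35.6 CPM against 29.4 and 31.5 CPM and passed (−0.18 ± 0.06, adjusted p = 0.00936), but DESeq2 (adjusted p = 0.122), the correction (adjusted p = 0.231) and the fits without untreated b or lower dose a ended the call. RPL10A, whose tagged copy was the bait, had 1530 and 1557 CPM against 1561 and 1522 CPM (adjusted p = 0.968), but had −0.16 after the correction (adjusted p = 1.36e-08).

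Ion channels had 16 falls and 4 rises among 100, or 9 and 8 after the correction. LRRC8B, a subunit of the volume-regulated anion channel, rose from 4.91 and 5.11 to 6.99 and 7.43 CPM (0.52 ± 0.11), and KCNQ5, a potassium channel, rose by 0.31. Notch pathway genes had 13 falls and 3 rises among 43, or 10 and 2 after the correction. Wnt pathway genes rose and fell in 9 of 56 cases each, but rose in 12 and fell in 5 after the correction. LRP5, a Wnt co-receptor, fell from 272.4 and 259.4 to 208.5 and 210.1 CPM (−0.34 ± 0.03).

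Ephrins and their receptors had 2 rises and 3 falls among 18, or 4 and 3 after the correction. EPHA4 had 16.8 and 15.9 CPM untreated and 11.6 and 12.1 CPM with the lower dose (−0.46 ± 0.08), and the ligand EFNB2 had 43.2 and 42.3 CPM against 49 and 48.9 CPM (0.20 ± 0.05). They were named as the largest fall and the largest rise of this family that passed, so their opposite directions followed from the choice. Of 23 tetraspanins 5 fell and 1, TSPAN5, rose (93.2 and 95.8 against 116.6 and 118.6 CPM; 0.31 ± 0.03). CD82, a tetraspanin known as a suppressor of metastasis, had 95.6 and 94.4 CPM against 80.5 CPM in both treated libraries (−0.24 ± 0.04).

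In cyclic AMP signalling 14 of 57 genes fell and 7 rose. PKIA, an inhibitor of protein kinase A, had 8.37 and 10.4 CPM untreated and 11.5 and 13.5 CPM treated (0.41 ± 0.09), and missed the threshold after the correction (adjusted p = 0.0694). Phosphoinositide enzymes had 10 falls and 5 rises among 68, or 5 and 9 after the correction. Subunits of PP1 and PP2A type phosphatases had 14 rises and 5 falls among 62, or 15 and 3 after it. PPP2R5B, a regulatory subunit of PP2A, rose from 19.4 and 20.7 to 25.3 and 24.4 CPM (0.31 ± 0.06), whereas the scaffold subunit PPP2R1A fell from 310.5 and 292.3 to 259.9 and 264.2 CPM (−0.20 ± 0.03, or −0.13 after the correction).

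Among transporters, falls outnumbered rises. Solute carriers outside the mitochondrial SLC25 group had 41 falls and 13 rises among 191, or 34 and 18 after the correction. ABC transporters had 13 falls and 2 rises among 33 (39.4% fell), or 6 and 2 after it. DESeq2 called 4 of the 33, up and down together. Risers included SLC39A4, a zinc importer (54.9 and 53.6 against 64.7 and 65.5 CPM; 0.26 ± 0.04), and SLCO1B3, an organic anion transporter (13.2 and 13.6 against 17.5 and 18.3 CPM; 0.41 ± 0.07). The largest fall among ABC genes, that of the cholesterol exporter ABCA1 (3 and 3.23 against 1.56 and 2.49 CPM; −0.63 ± 0.18), was lost without lower dose a.

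Oxidoreductases of small molecules had 25 falls and 4 rises among 86 (29.1% fell), or 27 and 4 after the correction. The family was taken by symbol and also counts EPHX1, the microsomal epoxide hydrolase, which is not an oxidoreductase. EPHX1 had 52.9 and 51.3 CPM untreated and 38.5 and 44.1 CPM with the lower dose (−0.33 ± 0.05). AOX1, aldehyde oxidase, went the other way, from 73.3 and 75.2 to 91.8 and 93.8 CPM (0.32 ± 0.04, adjusted p = 4.32e-10). Glycosyltransferases and sulfotransferases had 22 rises and 20 falls among 124, but rose in 30 and fell in 13 after the correction; with B3GNT5, above, the sialyltransferase ST6GALNAC4 rose (0.28 ± 0.05) and ST8SIA4 fell (−0.42 ± 0.10).

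Ubiquitin enzymes and DNA repair genes moved both ways. RING and HECT ligases rose and fell in 32 of 169 cases each, or 38 and 28 after the correction, with RNF20, a ligase of histone H2B, from 47 and 42.5 to 36.4 and 33.1 CPM (−0.36 ± 0.05). Deubiquitinases had 14 rises and 12 falls among 65. USP1, which acts in the Fanconi anemia pathway, rose from 145.0 and 157.2 to 181.3 and 181.4 CPM (0.26 ± 0.03). Of 106 DNA repair genes 22 rose and 18 fell; the recombination genes RAD54L (27.7 and 29.9 against 37.7 and 36.4 CPM; 0.36 ± 0.05) and XRCC2 (0.38 ± 0.09) rose and TP53BP1 fell.

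**Figure D4:**
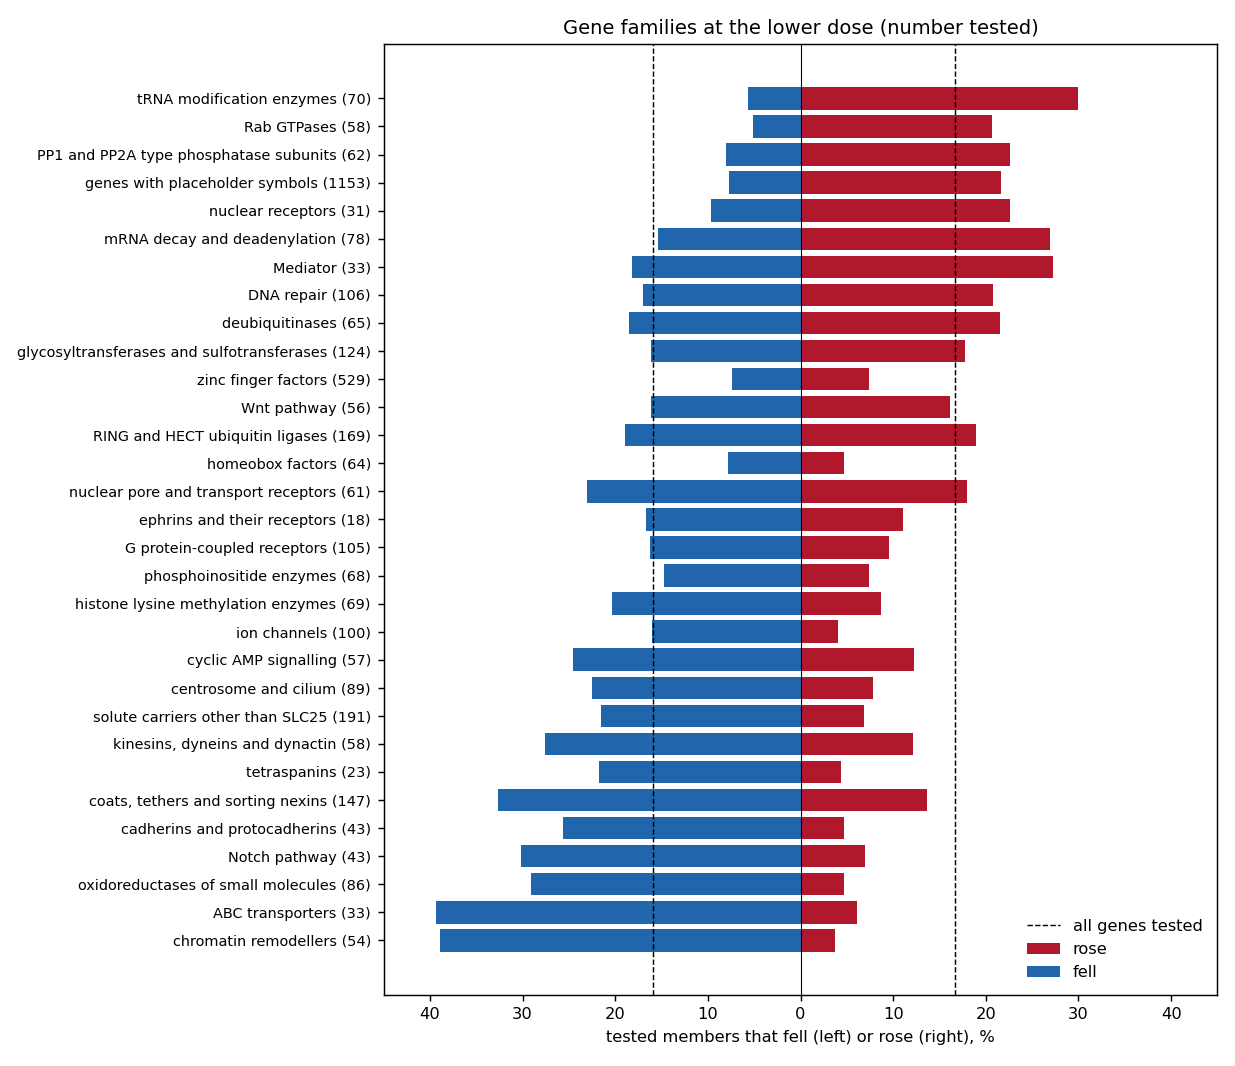
Percent of tested members of each gene family reported that fell (left, blue) or rose (right, red) at the lower dose, with the number tested in brackets; dashed lines mark all genes tested, 15.9% fell and 16.7% rose. Chromatin remodellers (38.9%) and ABC transporters (39.4%) had the largest shares that fell, and tRNA modification enzymes (30%) the largest that rose. These shares are edgeR's, before the correction for length and GC content. After it 16 of 54 and 6 of 33 fell and 20 of 70 rose, in that order. With up and down together, DESeq2 called 17 of 54, 4 of 33 and 10 of 70 in that order. Over all genes tested it called 2562 of 13548.

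Genes that still carried a placeholder symbol in the files, a mark of little study when the annotation was made, had 249 rises and 89 falls among 1153 (21.6% and 7.72%). After the correction 195 rose and 78 fell. A split by kind of symbol, made after the values were seen, found 152 rises and 26 falls among 573 chromosome open reading frames (110 and 24 after the correction). Their median transcript was 2227 nt. KIAA genes, with a median of 5213 nt, had 6 rises and 17 falls of 98 (6.12% and 17.3%), or 7 and 11 after the correction. Their share of falls was near the 15.9% of all genes tested. TMEM genes had 41 rises and 20 falls among 170. Of the named falls, C17orf28 (HID1) had 11.4 and 11.6 CPM untreated and 8.45 and 8.44 CPM treated (−0.45 ± 0.09, adjusted p = 7.07e-05).

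Some genes had nearly the same value at both doses. Among genes that passed with an absolute log2 fold change of at least 0.4, those with the smallest difference between the doses were listed, 5 in each direction; since that difference chose them, it is given without a test. OST4, a subunit of the oligosaccharyltransferase that glycosylates proteins in the endoplasmic reticulum, had 141.0 and 151.1 CPM untreated, 197.2 and 193.8 CPM at the lower dose and 190.5 and 202.8 CPM at the higher dose. Its log2 fold change at the lower dose was 0.42, or 0.27 after the correction. Its difference between the doses was 0.01, with a 95% interval of −0.05 to 0.07. LOC541471 (MIR4435-2HG) had 69 and 69.6 CPM at the higher dose, within the range of its lower dose libraries, and an interval of −0.08 to 0.08. The other 8 had wider intervals: for TNFRSF10C, a decoy receptor of TRAIL that fell (−0.56 ± 0.15), the interval was −0.32 to 0.32, so these data do not show that the doses acted alike. Over all genes, 4612 (34%) passed in the test of the higher against the lower dose.

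The lower dose also set some genes apart from both other groups. The contrast of the lower dose with the mean of untreated and higher dose passed for 879 genes (6.49%; 3.93% upward and 2.56% downward), and 369 of these (2.72%) had both lower dose libraries outside the range of the other 4: 212 above (1.56%) and 157 below (1.16%). Of the 212 and 157 genes, 151 and 108 also passed against untreated alone. DESeq2 passed 267 genes for the contrast and set 126 apart. Without lower dose a the numbers were 344 and 213, without lower dose b 398 and 235, and without higher dose a 465 and 223. The sets differed in base composition: the median GC content was 57.4% in the set below and 47.6% in the set above, against 49.1% over all genes tested. After the correction for length and GC content 184 of the 212 and 133 of the 157 passed.

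COL5A1, a fibril collagen chain, had 57.9 and 57.5 CPM untreated, 47.3 and 46.1 CPM at the lower dose and 59.2 and 58.2 CPM at the higher dose. Its lower dose libraries lay below the other 4, which were close together (log2 value of the contrast −0.32 ± 0.04, adjusted p = 3.33e-08; −0.29 after the correction). FASN, fatty acid synthase, had 641.3 and 629.7, then 553.1 and 533.0, then 716.7 and 686.8 CPM in that order of groups (−0.30 ± 0.02, adjusted p = 3.37e-13). TNKS1BP1, a tankyrase-binding protein, had 32.1 and 33.4, 25.3 and 26, and 29.3 and 31 CPM (−0.30 ± 0.05). DBN1, the actin-binding protein drebrin, had 60.8 and 60.5, 55.5 and 56.5, and 69.4 and 79.3 CPM (−0.26 ± 0.04). These 4, among the 12 lowest at 10 CPM or more, passed without each of the 6 libraries in turn; the other 8 (KDM6B, SDSL, NBEAL2, GDF15, NUFIP1, SFXN5, SPTAN1 and ADCY7) lost the call without 1 library or more.

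FAM196B was the highest at the lower dose among genes of at least 10 CPM (contrast 0.40 ± 0.06, adjusted p = 1.67e-06). SMAD6, an inhibitor of BMP signalling, had 12.8 and 12.9 CPM untreated, 15.5 and 15.2 CPM at the lower dose and 11.4 and 11.5 CPM with the higher dose (0.34 ± 0.07, adjusted p = 0.000403). CTDSP2, a small phosphatase of the RNA polymerase II tail, had 191.3 and 194.7, 206.6 and 199.3, and 145.6 and 146.6 CPM (0.27 ± 0.03, adjusted p = 9.27e-11). The distance of CTDSP2 lay mostly between the doses: against untreated alone it had 0.07 ± 0.03 and did not pass (adjusted p = 0.0564), nor did GPR137B (0.15 ± 0.06, adjusted p = 0.0679). FAM196B, SMAD6, GPR137B and CTDSP2 passed the contrast without each library; the other 8 of the 12 highest did not. With a minimum of 1 CPM, 1 of the 8 highest (FAM196B) and 1 of the 8 lowest (COL5A1) passed without each library. DESeq2 passed 5 of the 24 genes at 10 CPM or more and gave the other 19 no adjusted p.

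**Figure D5:**
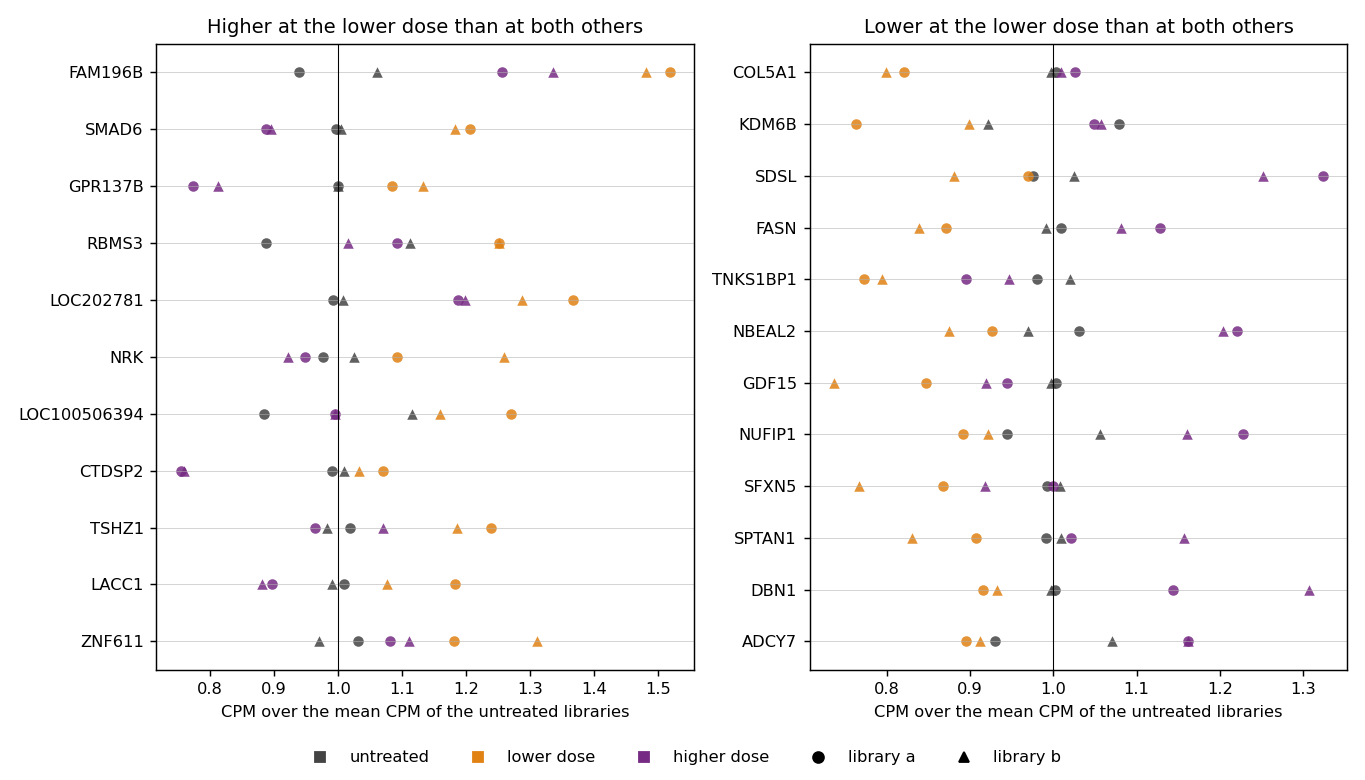
CPM of each of the 6 libraries divided by the mean of the untreated libraries (horizontal axis) for genes set apart as the highest (left) and lowest (right) at the lower dose with at least 10 CPM; grey is untreated, orange the lower dose, purple the higher dose, circles library a and triangles library b. Orange points lie outside the other 4 in each line, which the choice of genes required. COL5A1 shows this with 47.3 and 46.1 CPM against 57.5 to 59.2 CPM.

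At both doses 19 genes (0.14% of those tested) passed against untreated but in opposite directions; both comparisons share the untreated libraries. The set depended on the processing. DESeq2 found 4 such genes, all among the 19: FASN, FLNC, DDIT4 and HSPD1. After the correction for length and GC content 20 genes passed in opposite directions, of which 8 were among the 19. At the lower dose itself 8 of the 19 passed with DESeq2 and 12 after the correction, and FASN, DDIT4, SPTBN1, HMGCS1 and LEPROT passed without each of the 4 libraries.

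DDIT4, an inhibitor of mTOR complex 1 also called REDD1, had 162.1 and 149.9 CPM untreated, 141.9 and 136.7 CPM at the lower dose and 171.2 and 170.1 CPM with the higher dose (−0.16 ± 0.03 at the lower dose, edgeR adjusted p = 0.000116; −0.16 after the correction). FASN, whose libraries are given above, had −0.23 at the lower dose and −0.09 after the correction. HMGCS1, an enzyme of cholesterol synthesis, had 226.3 and 218.9, 204.4 and 199.4, and 241.6 and 230.5 CPM (−0.14 ± 0.03, adjusted p = 0.000196). The mitochondrial chaperone HSPD1 had 299.3 and 307.7 CPM untreated and 285.7 and 284.2 CPM at the lower dose (−0.09 ± 0.03), without overlap, but lost its call without untreated b or lower dose b.

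Other falls of this set did not last through the correction. SPTBN1, a spectrin chain, had 274.7 and 295.8 CPM untreated, 254.0 and 247.3 CPM at the lower dose and 290.5 and 316.1 CPM with the higher dose (−0.19 ± 0.03 at the lower dose; adjusted p = 0.119 after the correction). SPTAN1, its partner chain, had 205.2 and 208.9, 187.7 and 171.9, and 211.5 and 239.6 CPM (−0.20 ± 0.04; adjusted p = 0.475 after the correction), and its call was lost without untreated a or untreated b. FLNC, filamin C, had 95.6 and 103.1, 89.4 and 91.6, and 115.4 and 119.3 CPM (−0.14 ± 0.04; adjusted p = 0.898 after the correction). DBN1, PKP3 and CEP250 lost the call as well, and TUBB3 and RBM12 kept it. The 7 genes that rose at the lower dose and fell at the higher were the kinase FYN, the autophagy factor ATG13, SMAD3, CTDSPL, LEPROT, TMEM50A and C4BPB, with log2 fold changes of 0.08 to 0.13 at the lower dose; of these C4BPB lost the call after the correction.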

How the data were processed

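Polyadenylated RNA from the ribosome pull-down was sequenced in 6 libraries, 2 in each group; groups and doses came from the treatment labels. The authors deposited 1 table of whole-number read counts per gene symbol for each library. Per the submitters' processing notes these involved CASAVA 1.8.1, TopHat 1.4.0, HTSeq and hg19; the annotation, counting mode and strand setting are not stated there. HTSeq's 5 summary lines, 9.4% to 10.2% of reads, were left out.

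Of 21619 genes, 13548 passed filterByExpr and 8071 did not. The test was that of edgeR 4.0.16, run in R 4.3.3 (TMM factors, robust quasi-likelihood F test, two-sided, 3 residual degrees of freedom, Benjamini-Hochberg over all genes tested). A standard error is the size of the log2 fold change divided by the root of its F value. TMM takes most genes as unchanged, so changes are relative. The biological coefficient of variation was 1.79%, so small changes pass. An exact permutation test of 2 against 2 libraries cannot go below 0.333 and was not used. Replicates differed by more than counting noise (chi-square per degree of freedom 1.98 untreated, 1.68 lower dose). The tests counted each library as a sample, but this spread does not show that they came from separate cultures. The limits set by 3 reads cover counting error only. The script was tested on simulated data.

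Length and GC content came from 1 GENCODE v29 transcript per gene, matched by symbol (221 genes had none), and were removed as smooth trends within each library with mgcv 1.9.3. Starts came from RefSeq by symbol; printed coordinates are those of GRCh38.p14 and were not joined to the files, whose build is hg19.

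Members, families and lists were chosen with earlier results of these data known. Genes were named by rules on fold, CPM difference, family and contrast (largest past the threshold at a mean of at least 1 CPM). The rules for the largest rises and falls also required groups that did not overlap. The rules with a minimum of 10 CPM, the genes of opposite direction and the genes RPS21 and RPLP1 were added after values were seen. Alternatives were DESeq2 1.42.0, other scalings and filters, the replicate letter, the correction, the 4 libraries alone and each library left out; in the last, the lone sample of a group is assumed to vary like the other groups. A few genes and 1 gene family that the rules name are not reported here.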

Additional observations from a re-analysis of the deposited data

Results flagged for a closer look

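The 19 genes that passed in opposite directions at the 2 doses differed between the doses in edgeR's test of the higher against the lower dose, adjusted over all genes. Passing with opposite signs against the same untreated libraries all but fixes that difference, so the test adds no support. Genes that fell at the lower dose and rose at the higher had these log2 values for higher over lower dose: DBN1 0.41, FASN 0.37, FLNC 0.37, SPTAN1 0.33, DDIT4 0.29, SPTBN1 0.28, RBM12 0.26, PKP3 0.26, TUBB3 0.24, HMGCS1 0.23, CEP250 0.22 and HSPD1 0.18. Genes that rose and then fell had FYN −0.32, ATG13 −0.27, C4BPB −0.24, CTDSPL −0.22, LEPROT −0.21, SMAD3 −0.19 and TMEM50A −0.18. The adjusted p of the 19 ran from 3.33e-16 (FASN) to 1.75e-05 (CEP250 and PKP3). The median transcript of the 19 had 4014 nt and 52.2% GC, against 2903 nt and 49.1% over all genes tested; the part of length and GC content in the pattern was not tested beyond the correction, after which 18 of 19 passed the contrast with both other groups but 12 of 19 passed at the lower dose against untreated.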

How the results depend on the processing

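Log2 values of 267 results for named genes were recomputed under up to 13 alternatives; 152 kept direction and side of the threshold under each, and of 3167 values 314 lost the call, 4 gained it and 17 turned. With DESeq2 the lower dose called 2562 genes, 1341 up and 1221 down, of which 19 changed at least 1.5-fold; 267 passed the contrast with both other groups, 126 of them outside the other libraries, 2758 passed between the doses, and 4 passed in opposite directions in place of 19 (for these 2 counts, the contrast of named genes and the added rules, alternatives were added after seeing the data). Leaving out 1 library at a time gave 3165 to 3925 genes called, 1640 to 2007 up and 1525 to 1918 down, and 78 to 138 of at least 1.5-fold. The contrast fell to 344 genes without lower dose a, 398 without lower dose b and 465 without higher dose a, and reached 1055 without untreated b; genes set apart numbered 213, 235, 223 and 482 in that order. Rises stayed at 49.6% to 52.3% of the calls.

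Values that turned were all near 0. After the length and GC correction these were TMSB4X −0.04, C4BPB −0.02, CEP250 0.01, RPLP1 −0.04, CAV1 −0.01, PECAM1 0.07, COL1A1 0.09 and GFAP 0.08. Without untreated a they were CAV1 −0.02 and PECAM1 0.11, and without untreated b RPL10A 0.01 and GFAP 0.07. Without lower dose a they were RPLP1 −0.01 and GFAP 0.02, and without lower dose b RPL10A 0.02, PECAM1 0.09 and COL1A1 0.05. Leaving out 1 library gave −0.01 to 0.10 for RPLP1, −0.02 to 0.03 for CAV1, −0.12 to 0.11 for PECAM1, −0.09 to 0.05 for COL1A1 and −0.10 to 0.07 for GFAP. Of these, TMSB4X, C4BPB and CEP250 had passed.

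Over all genes tested, libraries with the same letter did not deviate together (correlations of −0.045, 0.00254 and −0.0348 between groups). Whether libraries of the same letter were made together is not given by the labels and was not tested. The replicate block gave 4320 calls, 95 of at least 1.5-fold, 795 for the contrast and 342 set apart. DESeq2 gave no adjusted p for 160 of the 4418 genes, and calls at a few CPM rest on few reads. The cause of these differences was not tested.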
